A study of Homo sapiens with 40 samples.

Results

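The canonical H2A and H2B genes encode a pair of core histones that join as dimers and take up newly made DNA into nucleosomes. They were chosen by identifier, from 33 Ensembl genes that cover the canonical H2A and H2B genes of the large histone cluster on chromosome 6 and of the small clusters on chromosome 1. Of these, 29 were among the 22069 genes measured, 12 for H2A and 17 for H2B. HIST1H2AD, HIST1H2AJ, HIST2H2AA3 and HIST2H2BF were not analysed here. Among those described most, HIST2H2BE (ENSG00000184678_at), HIST1H2BJ (ENSG00000124635_at), HIST1H2BK (ENSG00000197903_at) and HIST1H2AG (ENSG00000196787_at) rose, and HIST1H2AK (ENSG00000184348_at), HIST1H2BL (ENSG00000185130_at), HIST1H2BM (ENSG00000196374_at), HIST1H2AE (ENSG00000168274_at) and HIST1H2AB (ENSG00000137259_at) fell. No filter on low values was applied, and all 29 genes were tested. Canonical histone genes are expressed mainly in S phase, when new chromatin is assembled behind the replication fork. Their messages end in a conserved stem-loop in place of a poly(A) tail, and some of the genes, HIST1H2BK, HIST2H2BE, HIST1H2BD, HIST1H2BC and HIST1H2AC among them, are known to give polyadenylated messages as well. Most H2A genes lie head to head with an H2B gene, so that a pair of genes shares 1 short stretch of promoter. CASP8AP2 (FLASH) acts in the histone locus body in the processing of histone pre-mRNA, NPAT is the cyclin E-CDK2 substrate that activates histone gene transcription, and HINFP is a zinc finger factor best known at histone H4 promoters.

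The study compared a tumor line, the osteosarcoma line U2OS, with a normal line, hTERT-RPE1, which is retinal pigment epithelium immortalised with telomerase, after siRNA against these regulators. Each kind of cell was represented by 1 line. Cells were reverse transfected with 15 nM of siRNA, either a pool for 1 of the regulators or a negative control, and expression was read on 40 arrays in 16 groups. On days 1 and 2 each line had a control and a CASP8AP2 group of 3 replicates, and on day 3 each line had a control, a CASP8AP2, an NPAT and a HINFP group of 2 replicates. The labels call the replicates biological, and the methods describe duplicate transfections done at the same time, so the p-values measure only the spread between these samples. Levels are log2 expression values, and a difference of 1 is a 2-fold change. Values of days 1 and 2 and of day 3 were fitted apart and are not set against each other. The targeted messages were lower in every group that received their siRNA. CASP8AP2 was at 55.5%, 59.1% and 58.7% of control on days 1, 2 and 3 in the hTERT-RPE1 line and at 40.6%, 30.1% and 44.3% in U2OS cells. NPAT was at 40.3% in hTERT-RPE1 and 33.3% in U2OS cells, and HINFP at 48.4% and 32.0%. The lowest correlation between replicate arrays was 0.9946. Of 8 epithelial and retinal pigment epithelium markers and 7 bone markers, 2 of each could be looked up. The retinal genes BEST1 and RLBP1 read 3.55 to 4.28 in the control groups of both lines and the bone gene IBSP 3.47 to 4.21, close to the lower quartile of the arrays (3.66 to 3.87). RUNX2, a bone transcription factor, was higher in hTERT-RPE1 than in U2OS control cells (9.57 against 7.34 on day 1), so these markers did not set the lines apart as their labels would.

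The stretch between the start sites of a divergent H2A and H2B pair was 193 to 247 bases long in the 9 pairs with both genes on the array. 4 of these stretches are shown, because they belong to the genes with the largest rises and the largest falls. They are RefSeq sequence read on the plus strand, which places the H2B start at the left end and the H2A start at the right end, except in HIST1H2AK-HIST1H2BN, where the order is turned. Capitals mark matches, on either strand, to the octamer ATTTGCAT, which is read as ATGCAAAT on the other strand, to the CCAAT box, which appears there in reverse as ATTGG, and to the TATA box letters TATAAA. The pair that rose together and the pair that split are given first, and the 2 pairs that held the largest falls follow.

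HIST1H2BJ-HIST1H2AG (GRCh38.p14, chr6:27132796-27133042, plus strand): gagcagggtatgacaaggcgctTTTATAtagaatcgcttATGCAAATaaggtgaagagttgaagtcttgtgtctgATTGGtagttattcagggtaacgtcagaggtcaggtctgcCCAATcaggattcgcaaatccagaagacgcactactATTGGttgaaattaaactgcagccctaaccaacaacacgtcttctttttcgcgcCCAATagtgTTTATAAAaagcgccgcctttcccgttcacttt
HIST2H2BE-HIST2H2AC (GRCh38.p14, chr1:149886683-149886917, plus strand): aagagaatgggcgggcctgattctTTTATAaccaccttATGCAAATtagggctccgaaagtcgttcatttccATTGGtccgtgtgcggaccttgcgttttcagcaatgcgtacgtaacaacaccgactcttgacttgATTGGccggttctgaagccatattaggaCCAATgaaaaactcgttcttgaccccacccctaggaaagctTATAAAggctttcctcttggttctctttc
HIST1H2AK-HIST1H2BN (GRCh38.p14, chr6:27838376-27838568, plus strand): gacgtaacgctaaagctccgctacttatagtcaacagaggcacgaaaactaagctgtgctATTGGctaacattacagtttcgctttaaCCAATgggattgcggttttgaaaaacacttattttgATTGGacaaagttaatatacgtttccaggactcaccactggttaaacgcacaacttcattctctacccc
HIST1H2BL-HIST1H2AI (GRCh38.p14, chr6:27807930-27808172, plus strand): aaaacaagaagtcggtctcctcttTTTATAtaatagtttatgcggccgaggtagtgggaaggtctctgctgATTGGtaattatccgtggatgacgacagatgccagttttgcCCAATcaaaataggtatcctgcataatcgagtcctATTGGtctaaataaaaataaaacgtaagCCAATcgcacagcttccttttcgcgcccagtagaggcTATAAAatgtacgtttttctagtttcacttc

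The octamer, the site known for OCT1 in H2B promoters, was in the first 2 stretches and in neither of the other 2. HIST1H2AK-HIST1H2BN was also the 1 stretch of the 4 without the TATA box letters. The CCAAT box was in all 4. Over the 250 bases before each start, the octamer was in 9 of 12 H2A and 13 of 17 H2B genes, against 1.66% of 27305 RefSeq promoters. The CCAAT box was in all 29 genes against 33.0% of promoters, and the TATA box letters in 9 of 12 H2A and 12 of 17 H2B genes against 11.1%. CGTCCGC, the core of the sequence known to be bound by HINFP, was in none of the 29 windows and in 3.25% of all promoters. By ChIP-seq the paper nevertheless reports HINFP near the starts of replication-dependent H2B genes as well as H4 genes. Windows of paired genes overlap and count the same bases for both genes, adjacent matches can share letters, and a match is a description of the letters only.

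Under control siRNA the lines expressed different H2A and H2B genes. On day 1, 10 of 29 genes were higher in U2OS than in hTERT-RPE1 cells and 11 were lower, in a comparison in which 26.0% and 22.7% of all genes were higher and lower, 48.7% in all (limma, adjusted p under 0.05, here and throughout). On day 2 the counts were 12 and 10 (27.1% and 23.7% of all genes, 50.8% in all), and on day 3 they were 12 and 9 (23.3% and 20.5%, 43.8% in all). 4 genes stood out as higher in U2OS cells on each day. The difference on day 1 was 3.04 for HIST1H2BJ, 2.45 for HIST2H2BE, 2.26 for HIST1H2BK and 1.36 for HIST1H2AG, with SE of 0.08 to 0.15 and adjusted p of at most 5.61e-12. On day 3 the same 4 differed by 2.59, 2.96, 2.83 and 1.56. HIST1H2BF, HIST1H2AB, HIST2H2AB, HIST2H2AC and HIST1H2BM were also higher in U2OS on all 3 days, by 0.22 (HIST2H2AC, day 1) to 1.54 (HIST1H2BF, day 3). The opposite pattern was that of HIST1H2BB, which read 9.13, 8.81 and 8.82 in the hTERT-RPE1 control arrays of day 1 and 3.85, 4.44 and 3.94 in the U2OS control arrays. The U2OS values were near the lower quartile of the arrays, so the difference of -4.85 (SE 0.18, adjusted p 9.63e-16) gives the direction and is no measured ratio of the levels. It was -4.34 on day 2 and -4.14 on day 3. HIST1H2BO, HIST1H2AE, HIST3H2A, HIST1H2BG, HIST3H2BB, HIST1H2AM, HIST1H2AL and HIST1H2BE were lower in U2OS cells on all 3 days as well. Their differences on day 1 ran from -2.90 (HIST1H2BO) to -1.17 (HIST1H2BE). In the U2OS controls of day 3 HIST1H2BE, HIST3H2A and HIST1H2AM read 3.71 to 4.15, near the lower quartile of 3.66 to 3.77. HIST1H2BO and HIST1H2AL read 4.14 to 4.87 there. The day 3 differences of these dim genes likewise give the direction and no measured ratio. HIST3H2A and HIST3H2BB form the small pair on chromosome 1, and HIST1H2AE with HIST1H2BG and HIST1H2AM with HIST1H2BO are divergent pairs of the large cluster, so in all 3 pairs both genes were lower in U2OS cells. HIST1H2AK differed by -1.49 on day 1, by -0.40 on day 2 and was not called on day 3, at -0.17 (SE 0.20, adjusted p 0.513).

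**Figure D1:**
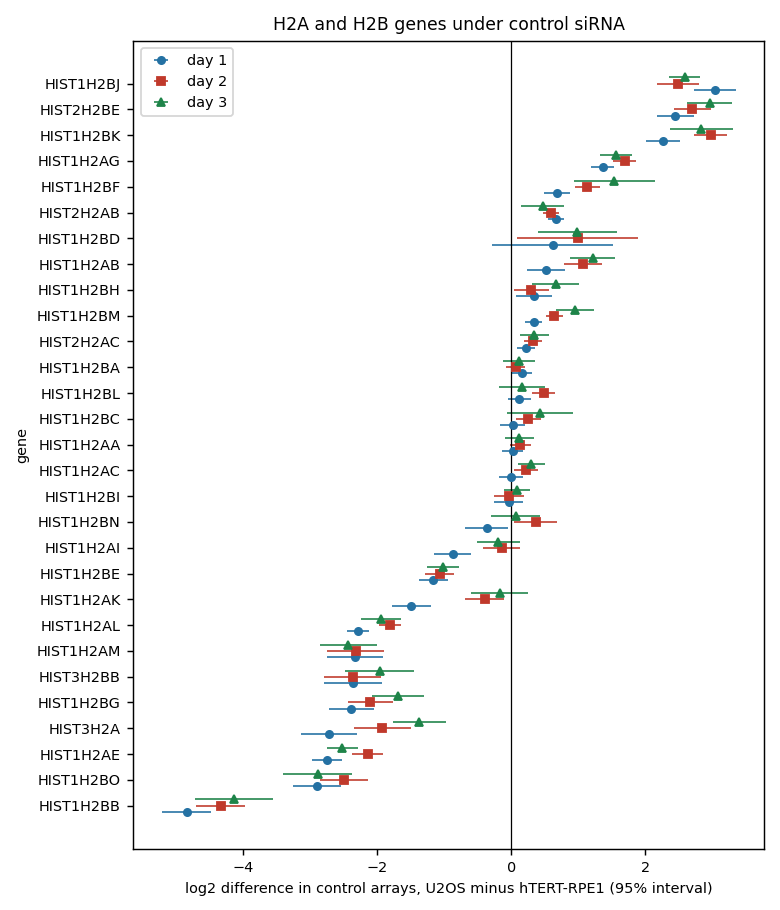
Difference between U2OS and hTERT-RPE1 cells under control siRNA for the 29 H2A and H2B genes (y axis), as the log2 difference with its 95% interval (x axis) on day 1, day 2 and day 3. HIST1H2BJ, HIST2H2BE, HIST1H2BK and HIST1H2AG lie at the top with differences of 1.36 to 3.04 on day 1, and HIST1H2BB lies at the bottom, from -4.85 on day 1 to -4.14 on day 3.

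The testis H2A and H2B genes HIST1H2AA and HIST1H2BA, which form 1 divergent pair and package chromatin in male germ cells, were at the bottom of the array in both lines. On day 1 the control arrays read 4.24, 3.99 and 4.12 for HIST1H2AA in hTERT-RPE1 and 4.09, 4.08 and 4.24 in U2OS cells. HIST1H2BA read 3.49, 3.32 and 3.30 in hTERT-RPE1 and 3.48, 3.58 and 3.52 in U2OS cells. The day 2 controls were alike, with HIST1H2AA at 4.15, 4.05 and 4.02 in hTERT-RPE1 and at 4.11, 4.19 and 4.31 in U2OS cells, and HIST1H2BA at 3.54, 3.49 and 3.29 and at 3.37, 3.59 and 3.55. The lower quartile of all genes lay at 3.77 to 3.87 on these arrays, so neither gene read clearly above it. HIST1H2BI and HIST1H2BE were also dim, with group means of 3.14 to 3.63 and 2.96 to 5.04. Between days 1 and 2 of control siRNA few genes moved. In hTERT-RPE1 cells 0 of 29 rose and 4 fell (4.45% and 5.56% of all genes, 10.0% in all), namely HIST3H2A, HIST1H2BK, HIST1H2AI and HIST1H2AL, with differences of -0.74 to -0.35. In U2OS cells 5 rose and 0 fell (7.29% and 5.70% of all genes, 13.0% in all). The largest of these rises was that of HIST1H2AK, 1.08 (SE 0.14, adjusted p 1.60e-05), and HIST1H2AB, HIST1H2AE, HIST1H2BL and HIST1H2AG rose by 0.27 to 0.43.

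The central question was how these genes responded to loss of each regulator, and whether the response differed between the lines. The genes did not move as a block. In every comparison with control some rose and others fell, and the balance of the 2 was not the same in the lines. In hTERT-RPE1 cells given CASP8AP2 siRNA, 5 rose and 5 fell (0.449% and 0.344% of all genes, 0.793% in all) among the 29 on day 1. On day 2, 7 rose and 8 fell (4.25% and 2.16% of all genes, 6.40% in all), and on day 3, 7 rose and 2 fell (3.62% and 2.54% of all genes, 6.15% in all). The shares of members called were above those of all genes, and rises were as frequent as falls or more frequent on days 1 and 3. In U2OS cells with CASP8AP2 siRNA, 3 rose and 12 fell (2.86% and 3.01% of all genes, 5.87% in all) on day 1. On day 2, 3 rose and 14 fell (11.8% and 13.1% of all genes, 24.9% in all), and on day 3, 4 rose and 12 fell (7.91% and 11.0% of all genes, 18.9% in all). Falls outnumbered rises on each day in this line. On day 3, NPAT siRNA gave 5 rises and 2 falls in hTERT-RPE1 cells (2.37% and 2.67% of all genes, 5.04% in all) and 4 and 11 in U2OS cells (3.84% and 4.29%, 8.13% in all). With quantile or cyclic loess normalization the falls with NPAT siRNA in hTERT-RPE1 cells numbered 4. HINFP siRNA gave the fewest calls among the members, 3 rises and 2 falls in hTERT-RPE1 cells (2.13% and 2.01% of all genes, 4.15% in all) and 2 and 4 in U2OS cells (4.59% and 4.84%, 9.43% in all). The day 3 siRNAs of a line share their control arrays, so their calls are not independent of one another. The median difference of the 29 genes was -0.32 in U2OS cells on day 2 of CASP8AP2 siRNA, beside -0.01 over all genes, and -0.12 in hTERT-RPE1 cells, beside -0.02. On day 3 the members' medians were -0.29, -0.23 and -0.13 with CASP8AP2, NPAT and HINFP siRNA in U2OS cells and -0.03, 0.00 and -0.02 in hTERT-RPE1 cells, where the medians of all genes lay within -0.03 and 0.02. Over the 10 comparisons, 8 of the 29 genes rose at least once and never fell (17.4% of all genes), 15 fell at least once and never rose (20.7%), 3 went both ways (HIST1H2AI, HIST1H2AL and HIST1H2BG, 3.28%), and HIST1H2AA, HIST1H2BO and HIST3H2BB were never called (58.6%). HIST1H2AG and HIST2H2BE rose in all 10, which held for 3 of all genes (0.0136%). No member fell in all 10, and 0 of all genes did.

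**Figure D2:**
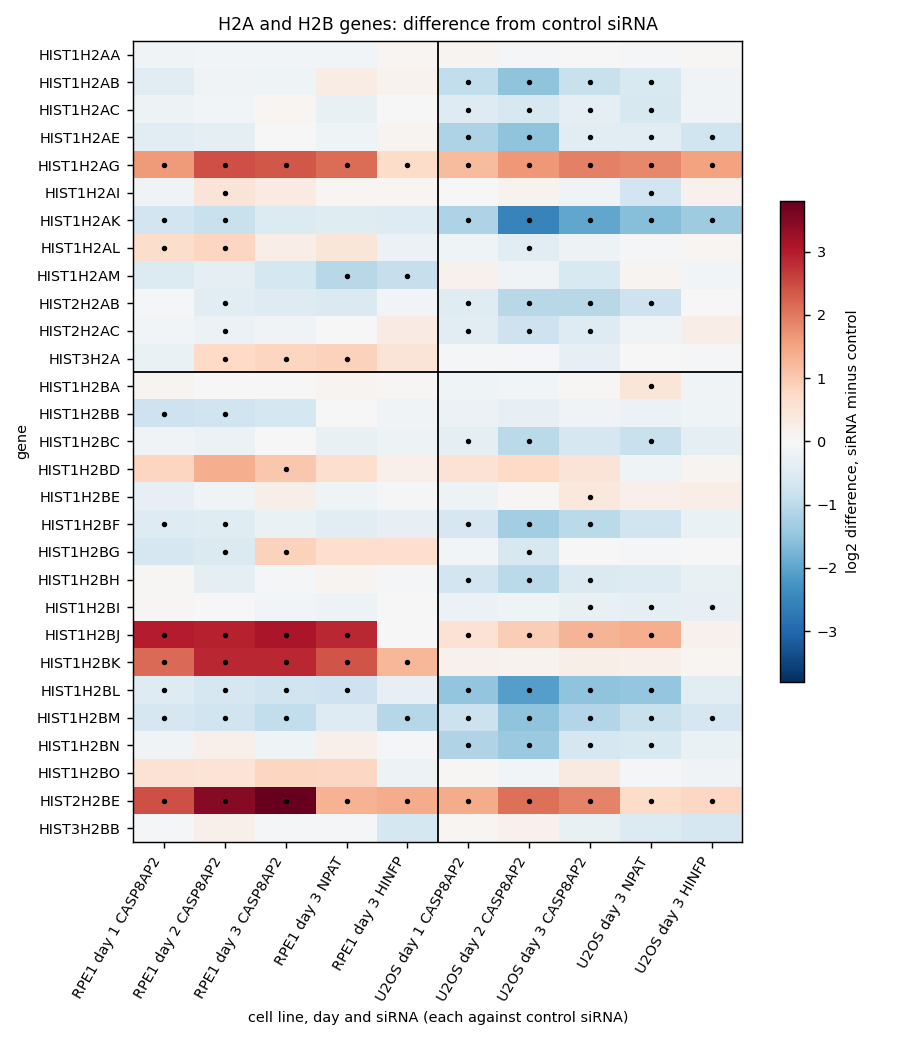
Log2 difference from control siRNA (colour, red higher and blue lower) for the 12 H2A genes above the line and the 17 H2B genes below it (y axis) in the 5 comparisons of hTERT-RPE1 and the 5 of U2OS cells (x axis), with a dot where the adjusted p was under 0.05. HIST1H2AG and HIST2H2BE are red with a dot in all 10 columns, and HIST1H2AK, HIST1H2AE and HIST1H2BM are blue with a dot in all 5 U2OS columns.

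These are bulk samples. The arrays alone cannot tell a change in the share of cells in S phase from one in histone message per S phase cell. By cytometry the paper reports a strong S phase phenotype with CASP8AP2 siRNA in both lines. It describes more S phase cells in tumor cells and an early S phase arrest in hTERT-RPE1 cells. Of 18 genes on a list of S phase genes, 8 could be looked up (CCNE1, CCNE2, CDC6, CDT1, E2F1, MCM3, RRM1 and RRM2). With CASP8AP2 siRNA in U2OS cells 1 of the 8 fell on day 1, 5 on day 2 and 0 on day 3, and in hTERT-RPE1 cells 0, 2 and 1. The shares of all genes that fell were 3.01%, 13.1% and 11.0% in U2OS and 0.344%, 2.16% and 2.54% in hTERT-RPE1 cells. The 8 differences ranged from -0.60 to -0.05 in U2OS cells on day 2, with a median of -0.23, beside a range of -2.54 to 2.10 and the median of -0.32 for the 29 H2A and H2B genes. With NPAT siRNA 3 of the 8 rose in hTERT-RPE1 cells (CDC6, RRM1 and RRM2), beside 2.37% of all genes. With HINFP siRNA 2 fell in hTERT-RPE1 cells (CCNE1 and E2F1), beside 2.01% of all genes. In U2OS cells none was called with either siRNA, where 8.13% and 9.43% of all genes were called. The part of the cell cycle in the histone gene differences was not tested. The coding sequences of these genes are close to identical, the probes were not in the files used here, and signal shared between copies was not tested.

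4 genes held the largest rises, HIST2H2BE, HIST1H2BJ and HIST1H2BK of H2B and HIST1H2AG of H2A, which are also the 4 that were highest in U2OS relative to hTERT-RPE1 control cells. HIST2H2BE, an H2B gene on chromosome 1, had the largest. In hTERT-RPE1 cells it read 6.74, 7.41 and 7.50 with control and 9.68, 9.72 and 9.59 with CASP8AP2 siRNA on day 1, and 7.01, 6.89 and 7.02 against 10.55, 10.29 and 10.51 on day 2. On day 3 it read 6.46 and 6.25 with control, 10.32 and 9.98 with CASP8AP2, 7.62 and 7.74 with NPAT and 7.95 and 7.59 with HINFP siRNA. No siRNA array overlapped the controls. The rises with CASP8AP2 siRNA were 2.45 (SE 0.13, adjusted p 1.40e-10), 3.47 (SE 0.13, adjusted p 2.32e-13) and 3.79 (SE 0.16, adjusted p 1.43e-08) on days 1, 2 and 3, the last a 13.9-fold increase. With NPAT siRNA the rise was 1.33 (SE 0.16, adjusted p 5.57e-04) and with HINFP siRNA 1.41 (SE 0.16, adjusted p 5.34e-04). In U2OS cells, where it started higher, HIST2H2BE read 9.68, 9.81 and 9.51 with control and 11.06, 11.19 and 11.00 with CASP8AP2 siRNA on day 1, and 9.64, 9.67 and 9.72 against 11.68, 11.85 and 11.80 on day 2. Its day 3 arrays read 9.41 and 9.23 with control, 11.22 and 11.17 with CASP8AP2, 10.22 and 9.83 with NPAT and 10.17 and 10.01 with HINFP siRNA. The groups again did not overlap. The rises were 1.42, 2.10 and 1.88 with CASP8AP2 siRNA, 0.71 with NPAT and 0.77 with HINFP siRNA, with adjusted p of at most 0.0158. The NPAT call was lost in 3 of 12 alternative settings and the HINFP call in 2 of 12, all of them settings that left out 1 array.

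HIST1H2BJ and HIST1H2AG are the H2B and H2A genes of 1 divergent pair, and in hTERT-RPE1 cells both rose with CASP8AP2 and with NPAT siRNA. HIST1H2BJ read 6.67, 6.60 and 6.39 with control and 9.75, 9.47 and 9.41 with CASP8AP2 siRNA on day 1, and 7.55, 6.80 and 6.68 against 9.88, 9.91 and 9.98 on day 2. The arrays of day 3 read 6.46 and 6.45 with control, 9.52 and 9.62 with CASP8AP2, 9.36 and 9.30 with NPAT and 6.32 and 6.55 with HINFP siRNA. With HINFP siRNA the values lay around the control values, while all other siRNA arrays were well above them. The rises were 2.99 (SE 0.15, adjusted p 5.54e-11) on day 1, 2.91 (SE 0.15, adjusted p 2.45e-11) on day 2, 3.11 (SE 0.11, adjusted p 3.12e-09) on day 3 and 2.87 (SE 0.11, adjusted p 1.30e-08) with NPAT siRNA, the day 3 values being 8.66-fold and 7.33-fold. With HINFP siRNA the difference was -0.02 (95% interval -0.25 to 0.22), which was not called. In U2OS cells HIST1H2BJ read 9.56, 9.61 and 9.60 with control and 10.32, 10.01 and 10.13 with CASP8AP2 siRNA on day 1, and 9.41, 9.48 and 9.62 against 10.46, 10.36 and 10.50 on day 2. At day 3 the values were 8.98 and 9.11 with control, 10.28 and 10.40 with CASP8AP2, 10.47 and 10.35 with NPAT and 9.34 and 9.08 with HINFP siRNA. The CASP8AP2 and NPAT arrays lay above the controls, and of the HINFP arrays 1 lay above both controls and the other between them. Rises were 0.56, 0.93 and 1.30 with CASP8AP2 siRNA and 1.37 with NPAT siRNA (adjusted p 0.0281, 7.09e-05, 9.36e-06 and 1.18e-05), and the difference with HINFP siRNA was 0.16 (SE 0.11, adjusted p 0.433). The day 1 call was lost without any 1 of 5 of the 6 arrays compared.

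HIST1H2AG, its H2A partner, read 6.68, 6.73 and 6.80 with control and 8.33, 8.36 and 8.38 with CASP8AP2 siRNA on day 1 in the hTERT-RPE1 line, and 6.63, 6.59 and 6.83 against 9.17, 9.06 and 9.13 on day 2. The day 3 values were 6.58 and 6.40 with control, 8.92 and 8.77 with CASP8AP2, 8.63 and 8.62 with NPAT and 7.27 and 7.10 with HINFP siRNA. Unlike HIST1H2BJ, it was above control with all 3 siRNAs. The rises were 1.62, 2.44 and 2.35 with CASP8AP2 siRNA, 2.13 with NPAT and 0.70 with HINFP siRNA (adjusted p 0.00560 for the last and at most 3.17e-07 for the others). The HINFP call was lost in 2 of 12 alternative settings. In U2OS cells HIST1H2AG read 8.21, 8.12 and 7.98 with control and 9.33, 9.27 and 9.30 with CASP8AP2 siRNA on day 1, and 8.31, 8.37 and 8.45 against 10.15, 9.81 and 10.16 on day 2. For day 3 the arrays gave 7.97 and 8.13 with control, 9.87 and 10.08 with CASP8AP2, 9.92 and 9.86 with NPAT and 9.47 and 9.67 with HINFP siRNA. No siRNA array overlapped the controls. The rises were 1.20, 1.66 and 1.92 with CASP8AP2 siRNA, 1.84 with NPAT and 1.52 with HINFP siRNA, with adjusted p of at most 4.37e-06.

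HIST1H2BK, an H2B gene with no H2A partner in these pairs, behaved differently in the lines. In hTERT-RPE1 cells it read 9.33, 9.60 and 9.77 with control and 11.82, 11.75 and 11.56 with CASP8AP2 siRNA on day 1, and 8.57, 9.02 and 9.23 against 11.81, 11.78 and 11.80 on day 2. On day 3 it read 9.39 and 8.61 with control, 12.07 and 11.66 with CASP8AP2, 11.47 and 11.31 with NPAT and 10.37 and 10.16 with HINFP siRNA. All siRNA arrays were above the controls. The rises were 2.14, 2.86 and 2.87 with CASP8AP2 siRNA, 2.39 with NPAT and 1.27 with HINFP siRNA (adjusted p of at most 0.00791). The HINFP call was lost in 2 of 12 alternative settings. In U2OS cells HIST1H2BK read 11.86, 11.81 and 11.80 with control and 12.06, 12.03 and 11.89 with CASP8AP2 siRNA on day 1, and 11.86, 11.90 and 11.98 against 11.97, 12.14 and 12.05 on day 2. Its day 3 arrays read 11.72 and 11.94 with control, 12.12 and 12.00 with CASP8AP2, 12.06 and 11.98 with NPAT and 12.13 and 11.70 with HINFP siRNA. It was near 12 in every group, and none of the 5 differences, 0.08 to 0.23, was called. The highest value of any gene was 13.58 on the arrays of days 1 and 2 and 13.31 on those of day 3, and whether this gene's probes were near their limit was not tested. On day 1 of CASP8AP2 siRNA HIST1H2BK, HIST1H2BJ and HIST2H2BE read 11.71 ± 0.13, 9.54 ± 0.18 and 9.67 ± 0.07 (SD, n = 3) in hTERT-RPE1 cells. These lay beside the U2OS control levels of 11.82 ± 0.03, 9.59 ± 0.02 and 9.67 ± 0.15, while HIST1H2AG lay above its U2OS controls. The match did not hold on day 3, except for HIST1H2BK. HIST2H2BE then read 10.32 and 9.98 against 9.41 and 9.23 in the U2OS controls. HIST1H2BJ read 9.52 and 9.62 against 8.98 and 9.11, and HIST1H2AG 8.92 and 8.77 against 7.97 and 8.13.

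**Figure D3:**
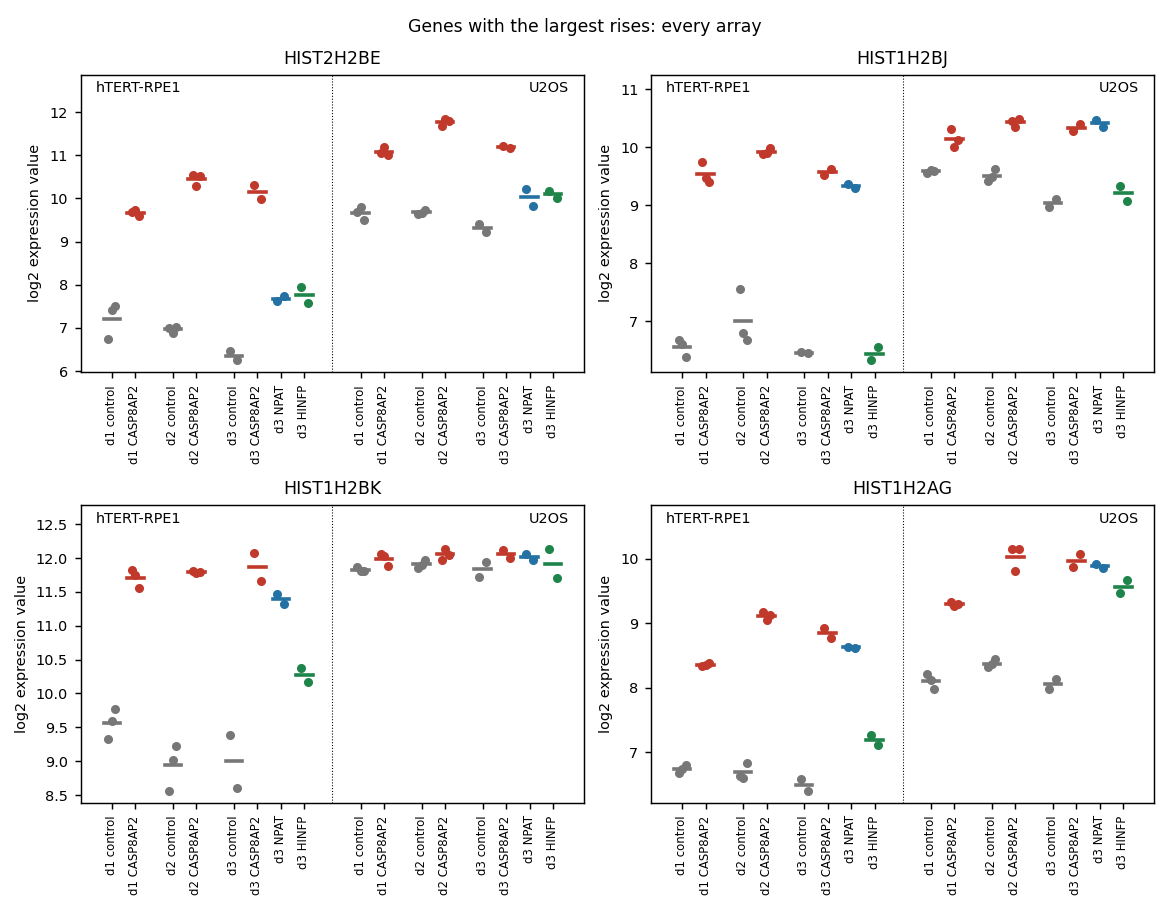
Log2 expression value (y axis) of HIST2H2BE, HIST1H2BJ, HIST1H2BK and HIST1H2AG in every array (points) of the 16 groups (x axis, d1 to d3 for days 1 to 3), hTERT-RPE1 cells left and U2OS cells right of the dotted line, with the group mean as a bar. Grey is control, red CASP8AP2, blue NPAT and green HINFP siRNA. In hTERT-RPE1 cells all CASP8AP2 arrays lie above the controls for all 4 genes, and HIST1H2BK stays near 12 in all U2OS groups.

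The falls were carried by other genes. HIST1H2AK, an H2A gene, had the largest. In U2OS cells it read 8.31, 8.43 and 8.33 with control and 7.22, 7.23 and 7.12 with CASP8AP2 siRNA on day 1, and 9.30, 9.37 and 9.65 against 6.93, 6.91 and 6.85 on day 2. The arrays of day 3 read 8.51 and 8.25 with control, 6.11 and 6.68 with CASP8AP2, 6.75 and 6.77 with NPAT and 7.15 and 6.88 with HINFP siRNA. No siRNA array overlapped the controls. It fell by 1.17 (SE 0.14, adjusted p 1.01e-05), 2.54 (SE 0.14, adjusted p 2.01e-11) and 1.98 (SE 0.20, adjusted p 3.42e-05) with CASP8AP2 siRNA, to 17.2% of control on day 2. It fell by 1.62 (SE 0.20, adjusted p 3.58e-04) with NPAT and by 1.36 (SE 0.20, adjusted p 8.95e-04) with HINFP siRNA. In hTERT-RPE1 cells HIST1H2AK read 9.76, 9.57 and 10.23 with control and 9.04, 9.35 and 9.00 with CASP8AP2 siRNA on day 1, and 9.77, 9.62 and 10.11 against 8.87, 9.05 and 9.04 on day 2. At day 3 the values were 8.73 and 8.37 with control, 7.97 and 8.09 with CASP8AP2, 8.25 and 7.93 with NPAT and 7.87 and 8.25 with HINFP siRNA. It fell by 0.72 on day 1 and 0.85 on day 2 (adjusted p 0.0120 and 3.76e-04), and the day 1 call was lost in 5 of 14 alternative settings. On day 3 the differences of -0.52, -0.46 and -0.49 were not called, although every siRNA array was below both controls.

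HIST1H2BL, an H2B gene, read 9.65, 9.82 and 9.91 with control and 8.39, 8.24 and 8.24 with CASP8AP2 siRNA in U2OS cells on day 1, and 10.04, 10.06 and 10.11 against 7.77, 7.98 and 8.17 on day 2. The day 3 values were 9.83 and 9.57 with control, 8.03 and 8.33 with CASP8AP2, 8.28 and 8.16 with NPAT and 9.44 and 9.17 with HINFP siRNA. It fell by 1.50 (SE 0.08, adjusted p 8.38e-10), 2.10 (SE 0.08, adjusted p 2.39e-13) and 1.52 (SE 0.16, adjusted p 5.18e-05) with CASP8AP2 siRNA and by 1.48 (SE 0.16, adjusted p 1.48e-04) with NPAT siRNA, while the difference with HINFP siRNA, -0.40 (SE 0.16, adjusted p 0.152), was not called. In hTERT-RPE1 cells it read 9.62, 9.66 and 9.73 with control and 9.15, 9.24 and 9.12 with CASP8AP2 siRNA on day 1, and 9.56, 9.55 and 9.66 against 8.90, 9.07 and 8.89 on day 2. For day 3 the arrays gave 9.69 and 9.38 with control, 8.89 and 8.64 with CASP8AP2, 8.91 and 8.61 with NPAT and 9.14 and 9.33 with HINFP siRNA. It fell there by 0.50, 0.64 and 0.77 with CASP8AP2 siRNA and 0.78 with NPAT siRNA, and both day 3 calls were lost in 3 of 12 alternative settings. The HINFP difference was -0.30 (SE 0.16, adjusted p 0.329).

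HIST1H2BM, an H2B gene, fell in 9 of the 10 comparisons, the most of any member. In U2OS cells it read 12.73, 12.72 and 12.80 with control and 11.96, 11.87 and 11.93 with CASP8AP2 siRNA on day 1, and 12.87, 12.89 and 12.88 against 11.22, 11.30 and 11.49 on day 2. On day 3 it read 12.50 and 12.27 with control, 11.14 and 11.39 with CASP8AP2, 11.61 and 11.50 with NPAT and 11.93 and 11.56 with HINFP siRNA. It fell by 0.83, 1.54 and 1.13 with CASP8AP2, by 0.84 with NPAT and by 0.65 with HINFP siRNA (adjusted p of at most 0.00756), and the HINFP call was lost in 3 of 12 alternative settings. The hTERT-RPE1 arrays of this gene read 12.41, 12.36 and 12.46 with control and 11.78, 11.77 and 11.80 with CASP8AP2 siRNA on day 1, and 12.31, 12.16 and 12.24 against 11.46, 11.56 and 11.42 on day 2. Its day 3 arrays read 11.46 and 11.42 with control, 10.60 and 10.41 with CASP8AP2, 10.92 and 10.99 with NPAT and 10.30 and 10.43 with HINFP siRNA. In neither line did an siRNA array of HIST1H2BM overlap the controls. It fell by 0.63, 0.76 and 0.94 with CASP8AP2 siRNA and by 1.08 with HINFP siRNA, with adjusted p of at most 9.58e-04. The NPAT difference was -0.49 (SE 0.13, adjusted p 0.0512).

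HIST1H2AE and HIST1H2AB are H2A genes that fell in U2OS cells and were not called in hTERT-RPE1 cells. HIST1H2AE read 6.95, 6.97 and 6.84 with control and 5.79, 5.70 and 5.79 with CASP8AP2 siRNA in U2OS cells on day 1, and 7.30, 7.46 and 7.20 against 5.46, 6.14 and 5.74 on day 2. The arrays of day 3 read 6.54 and 6.42 with control, 5.98 and 6.10 with CASP8AP2, 6.13 and 6.02 with NPAT and 5.79 and 5.65 with HINFP siRNA. It fell by 1.16 and 1.54 on days 1 and 2 (adjusted p 5.36e-07 and 1.01e-09) and by 0.44, 0.40 and 0.76 with CASP8AP2, NPAT and HINFP siRNA on day 3. The first 2 of the day 3 calls were lost in 2 of 12 and 7 of 12 alternative settings. In the normal line HIST1H2AE read 9.63, 9.75 and 9.63 with control and 9.27, 9.15 and 9.29 with CASP8AP2 siRNA on day 1, and 9.45, 9.50 and 9.45 against 9.06, 9.17 and 9.18 on day 2. At day 3 the values were 8.95 and 9.06 with control, 9.12 and 8.93 with CASP8AP2, 8.93 and 8.73 with NPAT and 9.04 and 9.20 with HINFP siRNA. The arrays of days 1 and 2 did not overlap, but the differences of -0.43 and -0.33 had adjusted p of 0.0712 and 0.0804, and those of day 3 lay between -0.17 and 0.12.

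HIST1H2AB read 9.06, 8.86 and 8.92 with control and 8.04, 7.97 and 8.00 with CASP8AP2 siRNA in U2OS cells on day 1, and 9.51, 9.26 and 9.36 against 7.85, 7.56 and 8.09 on day 2. The day 3 values were 9.60 and 9.33 with control, 8.48 and 8.77 with CASP8AP2, 8.82 and 8.94 with NPAT and 9.50 and 9.17 with HINFP siRNA. It fell by 0.94 (SE 0.14, adjusted p 1.13e-04), 1.54 (SE 0.14, adjusted p 2.32e-08) and 0.84 (SE 0.16, adjusted p 0.00266) with CASP8AP2 siRNA. It fell by 0.58 with NPAT siRNA, a call lost in 7 of 12 alternative settings. The hTERT-RPE1 values of HIST1H2AB were 8.39, 8.55 and 8.35 with control and 8.22, 7.63 and 8.17 with CASP8AP2 siRNA on day 1, and 8.10, 8.39 and 8.44 against 8.29, 8.14 and 8.13 on day 2. For day 3 the arrays gave 8.07 and 8.42 with control, 8.08 and 8.10 with CASP8AP2, 8.63 and 8.40 with NPAT and 8.25 and 8.48 with HINFP siRNA. The differences there ran from -0.43 to 0.27, and all siRNA groups but that of day 1 overlapped the controls.

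HIST1H2BC, 1 of the H2B genes known for polyadenylated messages, read 8.97, 9.29 and 9.31 with control and 8.83, 8.75 and 8.85 with CASP8AP2 siRNA in U2OS cells on day 1, and 9.34, 9.36 and 9.34 against 8.17, 8.29 and 8.50 on day 2. On day 3 it read 9.68 and 9.54 with control, 8.99 and 8.98 with CASP8AP2, 8.83 and 8.70 with NPAT and 9.53 and 9.00 with HINFP siRNA. It fell by 0.38 and 1.03 on days 1 and 2 (adjusted p 0.0110 and 2.05e-08) and by 0.85 with NPAT siRNA (adjusted p 0.0392), and the day 1 and NPAT calls were lost in 5 of 14 and 6 of 12 alternative settings. HIST1H2BC in hTERT-RPE1 cells read 9.27, 9.07 and 9.17 with control and 9.00, 9.18 and 8.96 with CASP8AP2 siRNA on day 1, and 9.09, 9.04 and 9.14 against 8.91, 8.94 and 8.79 on day 2. Its day 3 arrays read 9.55 and 8.82 with control, 9.44 and 8.87 with CASP8AP2, 9.00 and 8.79 with NPAT and 8.95 and 9.04 with HINFP siRNA. None of its differences in this line, -0.29 to -0.03, was called.

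HIST1H2BB and HIST1H2AM, which were higher in hTERT-RPE1 than in U2OS control cells, both fell in hTERT-RPE1 cells. HIST1H2BB, an H2B gene, read 8.26, 7.99 and 8.18 with CASP8AP2 siRNA on day 1, below the control values given above, and 8.69, 8.45 and 8.67 against 7.87, 7.97 and 7.69 on day 2. The arrays of day 3 read 8.41 and 7.56 with control, 7.55 and 7.11 with CASP8AP2, 8.12 and 7.81 with NPAT and 7.86 and 7.82 with HINFP siRNA. It fell by 0.78 and 0.76 on days 1 and 2 (adjusted p 0.0390 and 0.0105), and these calls were lost in 9 of 14 and 1 of 14 alternative settings. None of the day 3 differences was called, and the control arrays there spanned 7.56 to 8.41. In U2OS cells it read 3.37, 4.02 and 4.18 with CASP8AP2 siRNA on day 1, and 4.57, 4.12 and 4.11 against 3.84, 3.96 and 4.04 on day 2. At day 3 the values were 3.57 and 4.12 with control, 3.96 and 3.49 with CASP8AP2, 3.65 and 3.58 with NPAT and 3.88 and 3.47 with HINFP siRNA. These values were near the bottom of the arrays and none of the differences was called.

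HIST1H2AM, an H2A gene, read 7.04, 7.71 and 6.84 with control and 6.72, 6.77 and 6.53 with CASP8AP2 siRNA on day 1 in the hTERT-RPE1 line, and 7.35, 7.21 and 6.68 against 6.74, 6.71 and 6.67 on day 2. The day 3 values were 6.80 and 6.31 with control, 6.08 and 5.68 with CASP8AP2, 5.68 and 5.34 with NPAT and 5.63 and 5.73 with HINFP siRNA. It fell by 1.05 (SE 0.20, adjusted p 0.0104) with NPAT and by 0.87 (SE 0.20, adjusted p 0.0298) with HINFP siRNA, calls lost in 3 of 11 and 4 of 11 alternative settings. With CASP8AP2 siRNA the differences, -0.52, -0.38 and -0.67, were not called. In U2OS cells it read 4.57, 5.14 and 4.87 with control and 5.02, 5.29 and 4.77 with CASP8AP2 siRNA on day 1, and 4.90, 4.73 and 4.63 against 4.95, 4.37 and 4.59 on day 2. For day 3 the arrays gave 4.15 and 4.09 with control, 3.60 and 3.47 with CASP8AP2, 4.21 and 4.22 with NPAT and 3.73 and 4.31 with HINFP siRNA. None of these differences was called.

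**Figure D4:**
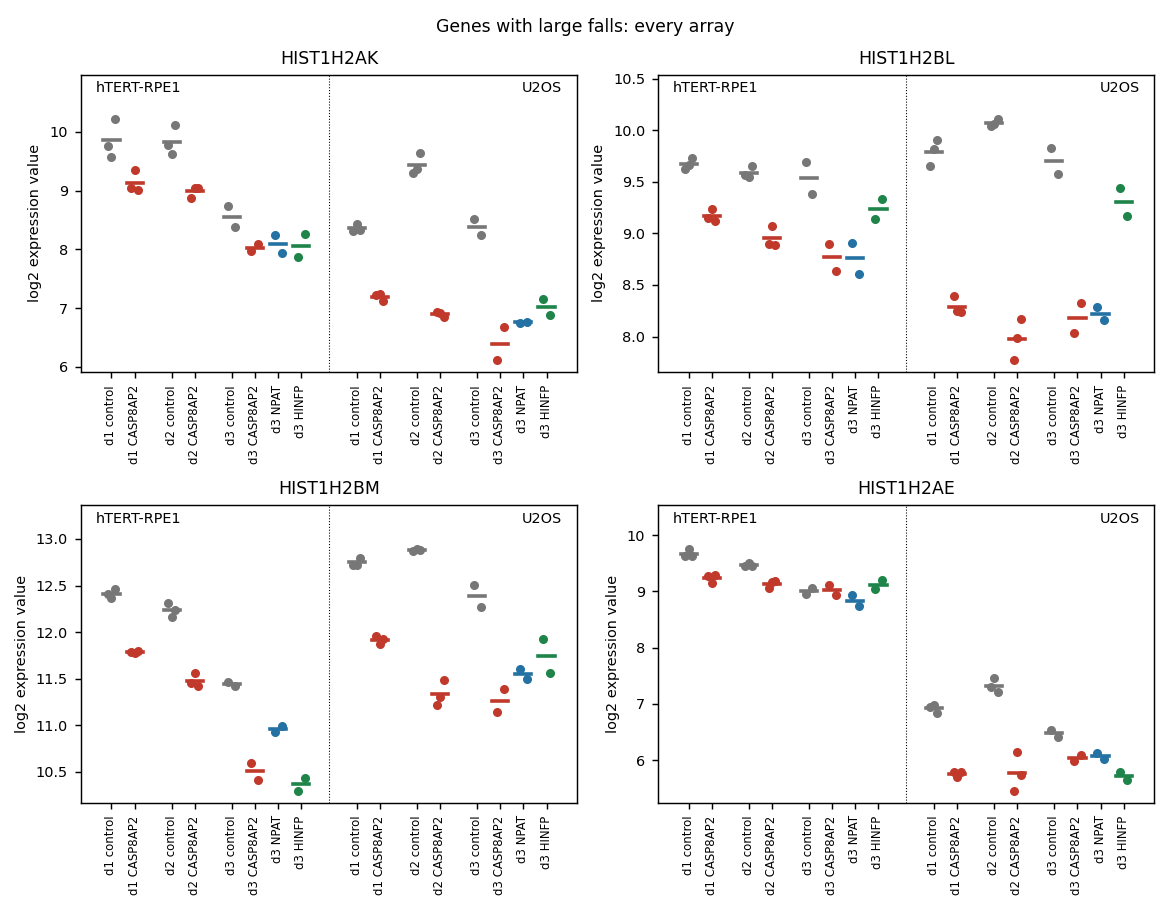
Log2 expression value (y axis) of HIST1H2AK, HIST1H2BL, HIST1H2BM and HIST1H2AE in every array (points) of the 16 groups (x axis, d1 to d3 for days 1 to 3), hTERT-RPE1 cells left and U2OS cells right of the dotted line, with the group mean as a bar. Grey is control, red CASP8AP2, blue NPAT and green HINFP siRNA. In U2OS cells every CASP8AP2 array lies below the control arrays of its day for all 4 genes, and HIST1H2AE is higher in hTERT-RPE1 than in U2OS cells in every group.

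The remaining members are given by their differences from control. In U2OS cells with CASP8AP2 siRNA HIST2H2AB fell by 0.47, 1.07 and 1.06 on days 1, 2 and 3, and with NPAT siRNA by 0.79, a call lost in 2 of 12 alternative settings. HIST2H2AC, the H2A gene beside HIST2H2BE, fell by 0.43, 0.78 and 0.49 with CASP8AP2 siRNA and was not called with NPAT (-0.12) or HINFP siRNA (0.24). HIST1H2BF, HIST1H2BN and HIST1H2BH fell on all 3 days of CASP8AP2 siRNA, on day 2 by 1.32, 1.42 and 1.03. With NPAT siRNA HIST1H2BN fell by 0.59, a call lost in 7 of 12 alternative settings. The day 3 calls of the 3 genes with CASP8AP2 siRNA were lost in 3 of 12, 3 of 12 and 6 of 12 alternative settings. HIST1H2AC fell by 0.49, 0.61 and 0.38 with CASP8AP2 and by 0.60 with NPAT siRNA. Its day 3 call with CASP8AP2 siRNA was lost in 6 of 12 alternative settings, quantile and cyclic loess normalization among them. HIST1H2BG and HIST1H2AL fell on day 2 alone, by 0.61 and 0.40, and HIST1H2AI fell with NPAT siRNA by 0.71. The HIST1H2BG and HIST1H2AI calls were lost in 1 of 14 and 4 of 12 alternative settings. In hTERT-RPE1 cells the smaller falls with CASP8AP2 siRNA were those of HIST1H2BF (-0.48 and -0.47 on days 1 and 2), HIST2H2AB (-0.43 on day 2), HIST2H2AC (-0.23 on day 2) and HIST1H2BG (-0.56 on day 2). Of these the HIST1H2BF calls were lost in 5 of 14 and 2 of 14 alternative settings and the HIST2H2AC call in 10 of 14. HIST1H2BG then rose on day 3, by 0.88 (SE 0.18, adjusted p 0.0116), so it was called in opposite directions on days 2 and 3. The first of these calls was lost in 7 of 14 alternative settings and the second in 4 of 12. HIST1H2AL rose by 0.66 and 0.81 on days 1 and 2, HIST1H2AI by 0.50 on day 2, and HIST3H2A by 0.75 on day 2, 0.83 on day 3 and 0.87 with NPAT siRNA. The day 1 call of HIST1H2AL was lost in 1 of 14 alternative settings. The calls of HIST1H2AI and HIST3H2A were lost in 4 of 14, 5 of 13, 4 of 11 and 4 of 11 alternative settings, in the same order. The controls of these 2 genes changed by -0.47 and -0.74 from day 1 to day 2. Their differences from control on day 1 were -0.12 and -0.24. HIST1H2BD rose by 1.01 (SE 0.27, adjusted p 0.0468) on day 3, a call lost in 7 of 12 alternative settings, among them the one without control replicate 2. HIST1H2BO and HIST3H2BB were not called in any comparison with control siRNA, with differences of -0.20 to 0.81 and -0.66 to 0.20.

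In the comparisons with control the testis pair gave 1 call. With CASP8AP2 siRNA HIST1H2AA read 4.02, 4.00 and 3.93 on day 1 and 4.01, 3.94 and 3.91 on day 2 in the hTERT-RPE1 line. In the U2OS line it read 4.18, 4.41 and 4.11 on day 1 and 4.11, 4.13 and 4.13 on day 2. HIST1H2BA read 3.37, 3.50 and 3.54 on day 1 and 3.48, 3.41 and 3.47 on day 2 in the hTERT-RPE1 line, and 3.37, 3.33 and 3.37 on day 1 and 3.44, 3.39 and 3.37 on day 2 in the U2OS line. None of the differences from control on days 1 and 2 was called for either gene. HIST1H2AA on day 3 read 3.57 and 3.49 with control, 3.53 and 3.33 with CASP8AP2, 3.44 and 3.44 with NPAT and 3.53 and 3.66 with HINFP siRNA in hTERT-RPE1 cells. The same groups in U2OS cells read 3.75 and 3.55, 3.71 and 3.58, 3.61 and 3.55 and 3.73 and 3.67. HIST1H2BA on day 3 read 3.33 and 3.21 with control, 3.38 and 3.12 with CASP8AP2, 3.33 and 3.39 with NPAT and 3.34 and 3.30 with HINFP siRNA in hTERT-RPE1 cells. In U2OS cells it read 3.53 and 3.24, 3.47 and 3.39, 3.89 and 3.81 and 3.32 and 3.16 in the same order. The 1 call was the rise of HIST1H2BA with NPAT siRNA in U2OS cells, 0.47 (SE 0.11, adjusted p 0.0247), at the bottom of the array, and it was lost in 4 of 11 alternative settings. The same gene was lower with HINFP than with NPAT siRNA in that line, by -0.61 (SE 0.11, adjusted p 0.00941). The equally dim HIST1H2BI fell in U2OS cells on day 3 by 0.29, 0.35 and 0.31 with CASP8AP2, NPAT and HINFP siRNA, and HIST1H2BE rose by 0.41 with CASP8AP2 siRNA. These calls were lost in 5 of 11, 5 of 11, 7 of 11 and 6 of 11 alternative settings.

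Whether the response differed between the lines was tested directly, as the siRNA effect in U2OS minus that in hTERT-RPE1 cells. With CASP8AP2 siRNA every difference that was called had the U2OS effect lower. On day 1, 9 of 29 were lower and 0 higher (0.408% and 0.281% of all genes, 0.689% in all). On day 2, 17 were lower and 0 higher (4.83% and 4.56%, 9.39% in all), and on day 3, 7 and 0 (5.50% and 4.05%, 9.55% in all). The median difference of the members was -0.30, -0.69 and -0.46 on days 1, 2 and 3, beside 0.01, -0.00 and 0.04 over all genes. 2 patterns were seen among these calls, larger rises in hTERT-RPE1 and larger falls in U2OS cells. HIST1H2AL was called in opposite directions on day 2, at 0.81 in hTERT-RPE1 and -0.40 in U2OS cells, with a line difference of -1.21. HIST3H2A and HIST1H2BG, which on day 3 rose in hTERT-RPE1 and were not called in U2OS cells, differed by -1.13 and -0.90. HIST3H2A read 4.12 and 3.84 in the U2OS controls of that day, near the lower quartile of the arrays (3.66 to 3.77). Among the genes that rose, HIST1H2BK differed by -1.98, -2.72 and -2.64, HIST1H2BJ by -2.43, -1.98 and -1.82, and HIST2H2BE by -1.03, -1.37 and -1.92 on days 1, 2 and 3 (adjusted p of at most 0.00989). HIST1H2AG differed on day 2 alone, by -0.78 (SE 0.12, adjusted p 1.45e-04), and on day 3 by -0.43 (SE 0.16, adjusted p 0.103). Among the genes that fell, HIST1H2AK differed by -1.69 on day 2 and -1.46 on day 3, HIST1H2BL by -0.999 and -1.46 on days 1 and 2, and HIST1H2BM by -0.79 on day 2 (adjusted p of at most 0.00704). HIST1H2AE and HIST1H2BN differed on days 1 and 2, by -1.21 and -1.60 on day 2, and HIST1H2AB, HIST1H2BF, HIST1H2BC, HIST2H2AC and HIST1H2AC on day 2 by -0.49 to -1.42. With NPAT siRNA 3 genes had the lower effect in U2OS cells and 1 the higher (1.59% and 1.87% of all genes, 3.46% in all). HIST1H2BK differed by -2.20, HIST1H2BJ by -1.50, HIST1H2AK by -1.16 and HIST1H2AM by 1.14. HIST1H2AM read 4.15 and 4.09 in the U2OS controls, near the lower quartile, so a fall there had little room to show. The calls of HIST1H2AK and HIST1H2AM were lost in 8 of 16 and 10 of 15 alternative settings, and that of HIST1H2AM with each of the 3 other normalizations, which left 0 higher. With HINFP siRNA 1 gene, HIST1H2AE, had the lower effect in U2OS cells (-0.88) and 1, HIST1H2AG, the higher (0.82), against 1.44% and 1.71% of all genes (3.15% in all).

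The CASP8AP2 effect was also compared between days 1 and 2. In U2OS cells 2 genes had a higher effect on day 2 and 7 a lower one (4.00% and 3.04% of all genes, 7.04% in all). HIST1H2AK changed most, by -1.37 (SE 0.20, adjusted p 1.24e-04), and its controls rose between these days as given above. HIST1H2BM, HIST1H2BF, HIST1H2BC, HIST2H2AB, HIST1H2BL and HIST2H2AC changed by -0.71 to -0.35, and HIST2H2BE and HIST1H2AG by 0.68 and 0.46 the other way. In hTERT-RPE1 cells 2 effects were higher on day 2 and 1 lower (0.603% and 0.0498% of all genes, 0.652% in all). These were HIST2H2BE (1.02), HIST1H2AG (0.82) and HIST2H2AB (-0.34), the last lost in 15 of 20 alternative settings. Whether the change between days differed between the lines was not tested.

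The 3 siRNAs were also compared with each other on day 3, without the control arrays. These 6 comparisons were added after the values had been seen. NPAT and CASP8AP2 siRNA differed in 1 gene in each line, HIST2H2BE, which was lower with NPAT siRNA, with an NPAT minus CASP8AP2 difference of -2.47 in hTERT-RPE1 and -1.17 in U2OS cells (SE 0.16 and 0.16, adjusted p 2.07e-06 and 0.00133). Of all genes 1.76% and 1.58% were lower in these comparisons and 0.621% and 1.93% higher, 2.38% and 3.50% in all. Several alternative settings called more members, up to 3 in hTERT-RPE1 and up to 4 in U2OS cells. For the other 3 rising genes NPAT minus CASP8AP2 in hTERT-RPE1 cells was -0.24 for HIST1H2BJ (95% interval -0.47 to -0.01), -0.48 for HIST1H2BK (-0.95 to -0.01) and -0.22 for HIST1H2AG (-0.46 to 0.02). HINFP siRNA left the rising genes lower than CASP8AP2 siRNA did in hTERT-RPE1 cells, and only some of them in U2OS cells. In hTERT-RPE1 cells 5 of 29 were lower and 1 higher (2.53% and 1.27% of all genes, 3.81% in all), with differences of -3.13 for HIST1H2BJ, -2.38 for HIST2H2BE, -1.66 for HIST1H2AG, -1.60 for HIST1H2BK, -1.01 for HIST1H2BO and 0.45 for HIST2H2AC. Against NPAT siRNA 6 were lower and 0 higher (2.06% and 1.57% of all genes, 3.63% in all), led by HIST1H2BJ (-2.89) and HIST1H2AG (-1.44), while HIST2H2BE did not differ past the threshold, at 0.09 with a 95% interval of -0.25 to 0.43. In U2OS cells 2 genes were lower with HINFP than with CASP8AP2 siRNA and 4 higher (2.44% and 3.16% of all genes, 5.60% in all). HIST1H2BJ and HIST2H2BE were at -1.13 and -1.10, and HIST1H2AG and HIST1H2BK were not called. HIST1H2BL, HIST2H2AB, HIST2H2AC and HIST1H2AB, which had fallen with CASP8AP2 siRNA, were higher by 1.12, 1.05, 0.73 and 0.71. Against NPAT siRNA the counts in U2OS cells were 2 lower and 4 higher (1.99% and 2.05% of all genes, 4.04% in all), with HIST1H2BJ at -1.21 and HIST1H2BL at 1.08.

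Genes of a divergent pair share the stretch between them, and the 9 pairs differed in how far the partners moved alike. HIST1H2AG and HIST1H2BJ, the first sequence shown, rose together with CASP8AP2 siRNA on all 3 days and with NPAT siRNA in both lines. HIST2H2AC and HIST2H2BE, the second, went apart. In U2OS cells HIST2H2AC fell while HIST2H2BE rose on all 3 days of CASP8AP2 siRNA, by -0.78 and 2.10 on day 2. In hTERT-RPE1 cells the same held on day 2, at -0.23 and 3.47, with the HIST2H2AC call lost in 10 of 14 alternative settings. HIST1H2AK and HIST1H2BN, the third, fell together in U2OS cells with CASP8AP2 siRNA on all 3 days and with NPAT siRNA, by -2.54 and -1.42 on day 2. In hTERT-RPE1 cells HIST1H2BN was not called. In the fourth, HIST1H2BL fell in U2OS cells on day 2 by 2.10 while HIST1H2AI was at 0.14 (SE 0.13, adjusted p 0.542). In hTERT-RPE1 cells on day 2 the pair was called in opposite directions, HIST1H2AI at 0.50 and HIST1H2BL at -0.64. The HIST1H2AI call was lost in 4 of 14 alternative settings. The difference between partners was not tested. Of the other pairs HIST1H2AC and HIST1H2BC fell together in U2OS cells on days 1 and 2 of CASP8AP2 siRNA and with NPAT siRNA. HIST1H2AE and HIST1H2BG fell together there on day 2 of CASP8AP2 siRNA, and HIST1H2AI and HIST1H2BL with NPAT siRNA. The NPAT calls of HIST1H2BN, HIST1H2BC and HIST1H2AI were lost in 7 of 12, 6 of 12 and 4 of 12 alternative settings. On day 2 in U2OS cells 3 pairs fell together, 1 rose together, 1 was called in opposite directions, 1 had 1 partner called and 3 had none. In hTERT-RPE1 cells on day 2 no pair fell together, 1 rose together, 2 were called in opposite directions, 3 had 1 partner called and 3 had none. Of all single genes 24.9% were called in U2OS and 6.40% in hTERT-RPE1 cells on day 2.

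**Figure D5:**
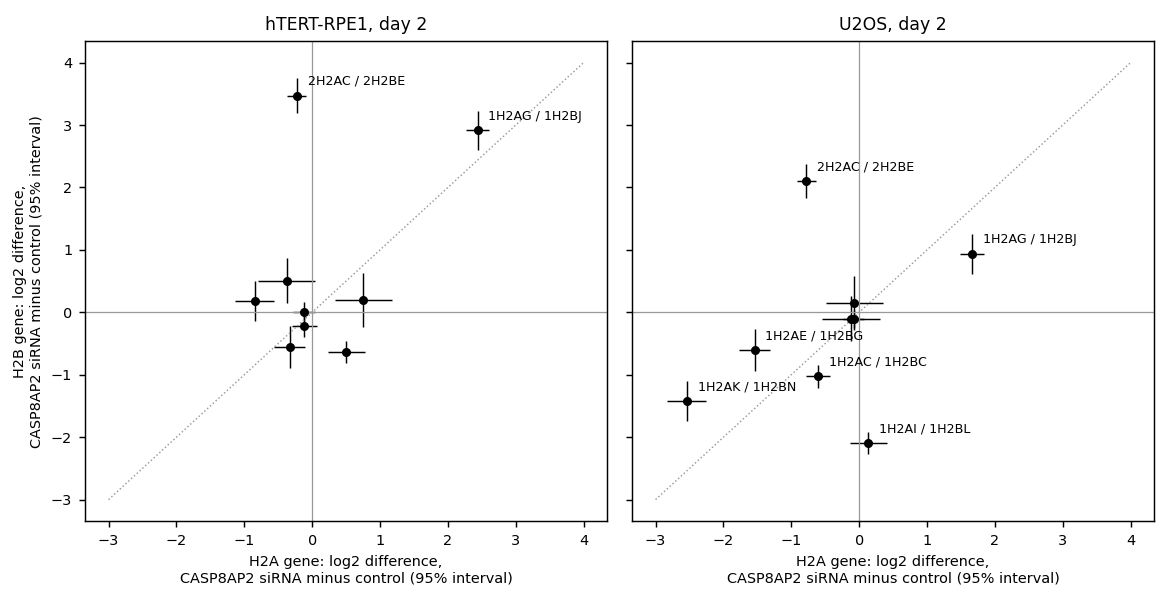
Log2 difference with CASP8AP2 siRNA on day 2 of the H2A gene (x axis) against that of its H2B partner (y axis) for the 9 divergent pairs, with 95% intervals, in hTERT-RPE1 (left) and U2OS cells (right). Names are shortened by the letters HIST, and the dotted line marks equal differences. HIST1H2AG and HIST1H2BJ lie in the upper right in both lines, HIST2H2AC and HIST2H2BE in the upper left, and HIST1H2AK and HIST1H2BN in the lower left in U2OS cells.

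Genes with and without the octamer were found among both the rises and the falls over the 2 lines. Of the 22 members with the octamer, 3 rose and 11 fell in U2OS cells on day 2 of CASP8AP2 siRNA, with a median difference of -0.36. Of the 7 without it 0 rose and 3 fell (HIST1H2AK, HIST1H2BL and HIST1H2BN), with a median of -0.07. Of all genes 11.8% rose and 13.1% fell there. In hTERT-RPE1 cells on day 2 the counts were 5 and 6 with the octamer and 2 and 2 without it. The shares of all genes were 4.25% and 2.16%. The 5 genes known for polyadenylated messages did not move as a group. In hTERT-RPE1 cells HIST2H2BE and HIST1H2BK rose in every comparison and HIST1H2BD in 1, and HIST1H2AC and HIST1H2BC were never called. In U2OS cells HIST2H2BE rose, HIST1H2AC fell in 4 and HIST1H2BC in 3 comparisons, and HIST1H2BK and HIST1H2BD were not called.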

How the data were processed

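Total RNA was labelled and hybridised to Affymetrix arrays (40 arrays, 16 groups). The deposited values are log2 expression values that the authors made with RMA in the affy package and a custom probe set definition by Ensembl gene, 22069 genes in all. The genome build, annotation version and probe sequences are not given in the sources used here. Arrays of days 1 and 2 and of day 3 were taken as normalized separately. RMA corrects the background of each array and brings the arrays to a shared distribution, which can compress differences of dim and of very bright genes.

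Each set was fitted with 1 mean per group in limma 3.58.1 (R 4.3.3, lmFit and eBayes), with Benjamini-Hochberg adjustment over 22069 genes and calls at an adjusted p under 0.05. The fit was tested on simulated data. Differences of lines and days were contrasts of the same fit. Members were matched by Ensembl identifier. Members, gene lists and sequences shown were chosen with earlier results of these data known. Values in every array were given for members with one of the 3 largest called falls or 3 largest called rises in a comparison with control, and for the testis pair. Others were given by range and counts. Promoter sequence and names came from RefSeq (GRCh38.p14), read with Python 3.11.15 and pandas 2.3.3. Alternatives were quantile, cyclic loess and median normalization, 1 fit of all 40 arrays, fits of only the groups compared, leaving out dim genes, an intensity trend, a replicate block, a size threshold and leaving out each array. The number of arrays limits the precision.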

Additional observations from a re-analysis of the deposited data

Results flagged for a closer look

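The following are the genes whose siRNA effect differed between the lines or between days by a test of the difference itself (limma, adjusted p under 0.05). Values are log2 differences of effects, U2OS minus hTERT-RPE1 or day 2 minus day 1. On day 1 of CASP8AP2 siRNA the U2OS minus hTERT-RPE1 difference was -0.72 for HIST1H2AE, -0.83 for HIST1H2AL, -0.39 for HIST2H2AB, -0.77 for HIST1H2BH, -2.43 for HIST1H2BJ, -1.98 for HIST1H2BK, -0.999 for HIST1H2BL, -0.99 for HIST1H2BN and -1.03 for HIST2H2BE. On day 2 of CASP8AP2 siRNA the U2OS minus hTERT-RPE1 difference was -1.42 for HIST1H2AB, -0.49 for HIST1H2AC, -1.21 for HIST1H2AE, -0.78 for HIST1H2AG, -1.69 for HIST1H2AK, -1.21 for HIST1H2AL, -0.64 for HIST2H2AB, -0.55 for HIST2H2AC and -0.81 for HIST1H2BC. In the same comparison it was -0.85 for HIST1H2BF, -0.69 for HIST1H2BH, -1.98 for HIST1H2BJ, -2.72 for HIST1H2BK, -1.46 for HIST1H2BL, -0.79 for HIST1H2BM, -1.60 for HIST1H2BN and -1.37 for HIST2H2BE. On day 3 of CASP8AP2 siRNA the U2OS minus hTERT-RPE1 difference was -0.46 for HIST1H2AC, -1.46 for HIST1H2AK, -1.13 for HIST3H2A, -0.90 for HIST1H2BG, -1.82 for HIST1H2BJ, -2.64 for HIST1H2BK and -1.92 for HIST2H2BE. On day 3 of NPAT siRNA the U2OS minus hTERT-RPE1 difference was -1.16 for HIST1H2AK, 1.14 for HIST1H2AM, -1.50 for HIST1H2BJ and -2.20 for HIST1H2BK. On day 3 of HINFP siRNA the U2OS minus hTERT-RPE1 difference was -0.88 for HIST1H2AE and 0.82 for HIST1H2AG. In hTERT-RPE1 cells the day 2 minus day 1 difference of the CASP8AP2 effect was 0.82 for HIST1H2AG, -0.34 for HIST2H2AB and 1.02 for HIST2H2BE. In U2OS cells the day 2 minus day 1 difference of the CASP8AP2 effect was 0.46 for HIST1H2AG, -1.37 for HIST1H2AK, -0.60 for HIST2H2AB, -0.35 for HIST2H2AC, -0.65 for HIST1H2BC, -0.69 for HIST1H2BF, -0.59 for HIST1H2BL, -0.71 for HIST1H2BM and 0.68 for HIST2H2BE. The CASP8AP2 message itself was at a lower share of control in U2OS than in hTERT-RPE1 cells on each day, and the part of this in the line differences was not tested.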

How the results depend on the processing

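Of the 115 calls of members in the 10 comparisons with control, 73 held under every alternative run and 0 turned direction. Counts that moved by over 1.5 times are given beside the count as reported, in brackets. A fit of only the groups compared gave 6 (10) for CASP8AP2 in hTERT-RPE1 cells on day 1, 5 (9) for CASP8AP2 in hTERT-RPE1 cells on day 3, 4 (7) for NPAT in hTERT-RPE1 cells on day 3, 2 (5) for HINFP in hTERT-RPE1 cells on day 3, 4 (7) for the line difference of CASP8AP2 on day 3, 1 (2) for the line difference of HINFP on day 3, 1 (3) for the day difference in hTERT-RPE1 cells, 0 (4) for the control days in hTERT-RPE1 cells, 3 (5) for the control days in U2OS cells, 2 (6) for HINFP against CASP8AP2 in U2OS cells and 3 (6) for HINFP against NPAT in U2OS cells. Counting only calls with an absolute log2 difference of at least 1 gave 4 (10) for CASP8AP2 in hTERT-RPE1 cells on day 1, 4 (15) for CASP8AP2 in hTERT-RPE1 cells on day 2, 6 (15) for CASP8AP2 in U2OS cells on day 1, 5 (9) for CASP8AP2 in hTERT-RPE1 cells on day 3, 3 (5) for HINFP in hTERT-RPE1 cells on day 3, 8 (16) for CASP8AP2 in U2OS cells on day 3, 4 (15) for NPAT in U2OS cells on day 3, 2 (6) for HINFP in U2OS cells on day 3, 3 (9) for the line difference of CASP8AP2 on day 1, 9 (17) for the line difference of CASP8AP2 on day 2, 0 (2) for the line difference of HINFP on day 3, 1 (3) for the day difference in hTERT-RPE1 cells, 1 (9) for the day difference in U2OS cells, 0 (4) for the control days in hTERT-RPE1 cells, 1 (5) for the control days in U2OS cells, 3 (6) for HINFP against NPAT in hTERT-RPE1 cells and 2 (6) for HINFP against NPAT in U2OS cells. One fit of all 40 arrays gave 12 (7) for NPAT in hTERT-RPE1 cells on day 3, 12 (7) for the line difference of CASP8AP2 on day 3, 8 (4) for the line difference of NPAT on day 3, 4 (2) for the line difference of HINFP on day 3, 3 (1) for NPAT against CASP8AP2 in hTERT-RPE1 cells, 4 (1) for NPAT against CASP8AP2 in U2OS cells and 10 (6) for HINFP against CASP8AP2 in U2OS cells. Leaving out dim genes gave 7 (4) for the control days in hTERT-RPE1 cells, 2 (1) for NPAT against CASP8AP2 in hTERT-RPE1 cells and 3 (1) for NPAT against CASP8AP2 in U2OS cells. An intensity trend in the prior variance gave 7 (4) for the control days in hTERT-RPE1 cells, 2 (1) for NPAT against CASP8AP2 in hTERT-RPE1 cells and 4 (1) for NPAT against CASP8AP2 in U2OS cells. Cyclic loess normalization gave 2 (5) for the control days in U2OS cells, 2 (1) for NPAT against CASP8AP2 in hTERT-RPE1 cells and 3 (1) for NPAT against CASP8AP2 in U2OS cells. Quantile normalization gave 3 (1) for NPAT against CASP8AP2 in U2OS cells. Centring each array on its median gave 2 (5) for the control days in U2OS cells. With normalizations that moved the balance, rises and falls were 5 and 4 under quantile and loess for NPAT in hTERT-RPE1 cells (5 and 2), 0 and 3 under both and 0 and 4 under centring for its line difference (1 and 3), 1 and 2 under centring for the line difference of HINFP (1 and 1), 2 and 0 under both for the day difference in hTERT-RPE1 cells (2 and 1), 1 and 4 under loess for the control days in hTERT-RPE1 cells (0 and 4), and 1 and 2 under both for NPAT against CASP8AP2 in U2OS cells (0 and 1).

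The deviations of same-numbered arrays from their group means correlated at -0.12 to 0.21. These were over 0.1 in 0 of 4 pairs of groups on days 1 and 2 and in 5 of 12 on day 3, and neither the labels nor the methods tie a number to a shared culture, so the replicate numbers were not taken as pairs. A replicate block gave 3 (5) for the control days in U2OS cells and 4 (1) for NPAT against CASP8AP2 in U2OS cells, and moved no other count by over 1.5 times. Leaving out 1 array at a time moved the count by at most 1.5 times in 15 of the 28 comparisons. In the others, arrays are named by group and replicate where they moved it by more. The range was 5 to 10 (9) for CASP8AP2 in hTERT-RPE1 cells on day 3, with 5 without CASP8AP2 2. For NPAT in hTERT-RPE1 cells on day 3 it was 4 to 8 (7), with 4 without NPAT 2. For HINFP in hTERT-RPE1 cells on day 3 it was 2 to 8 (5), with 8 without control 1 and 2 without HINFP 1. For CASP8AP2 in U2OS cells on day 3 it was 9 to 13 (16), with 9 without control 1 or CASP8AP2 1. For NPAT in U2OS cells on day 3 it was 7 to 8 (15), with 7 without control 1 or control 2 or NPAT 2 and 8 without NPAT 1. For the line difference of CASP8AP2 on day 1 it was 5 to 8 (9), with 5 without hTERT-RPE1 control 3 or hTERT-RPE1 CASP8AP2 3. For the line difference of CASP8AP2 on day 3 it was 4 to 11 (7), with 11 without hTERT-RPE1 control 1 and 4 without hTERT-RPE1 CASP8AP2 2 or U2OS control 1. For the line difference of NPAT on day 3 it was 2 to 6 (4), with 2 without hTERT-RPE1 NPAT 1 or hTERT-RPE1 NPAT 2 or U2OS control 1 or U2OS control 2 or U2OS NPAT 1 or U2OS NPAT 2. For the line difference of HINFP on day 3 it was 1 to 4 (2), with 4 without hTERT-RPE1 control 1 and 1 without hTERT-RPE1 HINFP 2 or U2OS control 1 or U2OS HINFP 2. For the control days in hTERT-RPE1 cells it was 2 to 7 (4), with 2 without day 1 replicate 3 and 7 without day 2 replicate 3. For the control days in U2OS cells it was 2 to 4 (5), with 3 without day 1 replicate 2 or day 2 replicate 1 and 2 without day 1 replicate 3 or day 2 replicate 2 or day 2 replicate 3. For HINFP against NPAT in hTERT-RPE1 cells it was 2 to 3 (6), with 2 without NPAT 1 or HINFP 1 and 3 without NPAT 2 or HINFP 2. For HINFP against NPAT in U2OS cells it was 3 to 5 (6), with 3 without HINFP 1. Where an arm was left with 1 array, it was assumed to vary like the other groups. Days 1 and 2 with 3 arrays a group limit the precision less than day 3 with 2. The cause of these changes was not tested beyond the smaller number of arrays, genes or degrees of freedom that an alternative itself brings.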

Other observations

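For 2 members the arrays of at least 1 group spanned 1 or more on the log2 scale. HIST1H2BD, an H2B gene known for polyadenylated messages, was low in replicate 2 of the hTERT-RPE1 control on all 3 days. It read 8.53, 6.88 and 8.39 on day 1, 8.29, 6.22 and 8.42 on day 2 and 7.92 and 6.69 on day 3, and in the U2OS line it read 8.88, 9.35 and 9.91 on day 2 of CASP8AP2 siRNA. HIST3H2BB, the H2B gene of the small pair on chromosome 1, read 5.96, 4.68 and 4.92 with CASP8AP2 siRNA in U2OS cells on day 1.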
